A study of Homo sapiens with 8 samples.

Results

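Interferon-stimulated genes are the effector genes of the antiviral state. The members described here are 9 of them, ISG15, IFI6, IFIT1, IFIT2, IFIT3, MX1, OAS1, OAS2 and IRF7, chosen by symbol among the 58302 genes of both deposited tables, and each of the 9 was present once in each table. The cells were MOLM-13, a human cell line of monocytic acute myeloid leukaemia. They carried a hairpin against circMYBL2, a circular RNA of the MYBL2 gene (sh-circMYBL2), or a control hairpin (sh-NC), so every library came from cells with a hairpin and there were no cells without one. The labels used here give neither the vector that drives the hairpins nor whether the cells were a pool or a clone. Each hairpin had 2 libraries of ribosome footprints and 2 of input RNA. The question addressed is whether loss of the circle goes with an innate response to RNA, as far as these genes report it. No level of circMYBL2 itself is given here, so its loss is taken from the labels. The sample titles name a single hairpin against the circle. Other effects of that hairpin's sequence and loss of the circle cannot be told apart here. Both hairpins are themselves double-stranded RNA, so what a hairpin does in both groups alike is not measured by this comparison.

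Cells detect foreign or misplaced RNA through sensors such as RIG-I and MDA5, which signal through MAVS to the kinase TBK1 and the factor IRF3, and this switches on interferon genes. Secreted interferon binds its receptor, and the kinases JAK1 and TYK2 then activate STAT factors. Among these STAT2 acts with the DNA-binding factor IRF9 in a complex that binds an interferon-stimulated response element (ISRE) in the promoters of the member genes. In many cell types these genes are low at rest and rise strongly after interferon, which makes them a common readout of such a response.

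The members' promoters are shown because the ISRE is the element through which that readout is known to work. RefSeq promoter windows (GRCh38.p14, 250 bases before to 50 after a start) were matched for 6 of the 9 members, which have 9 windows as some genes have several starts. IFIT2, OAS2 and IRF7 were not matched. The ISRE core, GAAA, any 2 bases and GAAA again, searched on both strands with overlaps counted, were found in 7 of the 9 windows (77.8%), against 3.57% of all 35116 windows in the table. Among 38 matched genes of a wider list of interferon-stimulated genes, 52% of 50 windows held them. ISG15 and IFIT1 each had 2 matches, IFI6 had 3, both IFIT3 windows had 2, and 2 of the 3 MX1 windows had 1. OAS1 had none in its window, where the letters TTC, any 3 bases and GAA, a core of STAT sites, occurred 2 times. Those letters also occurred in 1 MX1 window, so in 22.2% of the members' windows, against 7.66% of all. For 4 genes 1 stretch before a start is printed in the direction of the gene, with the matched letters in capitals. For IFIT3 it is that of the upstream start, and further matches of IFI6, IFIT3 and MX1 are not shown.
ISG15 (chr1:1013369-1013414, plus strand): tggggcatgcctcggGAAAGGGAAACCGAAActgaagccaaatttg
IFI6 (chr1:27672261-27672300, minus strand): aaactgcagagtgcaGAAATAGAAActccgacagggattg
IFIT1 (chr10:89392492-89392544, plus strand): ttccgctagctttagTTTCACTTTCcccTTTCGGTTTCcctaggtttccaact
IFIT3 (chr10:89327860-89327899, plus strand): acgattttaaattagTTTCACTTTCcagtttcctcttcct
In ISG15 the 2 matches overlap and read as one run, and in IFIT1 and IFIT3 the element lies on the opposite strand, so that TTTC is what is seen. A match of letters is not shown to be a bound site.

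Reads assigned to genes numbered 13507486 to 14606366 per library of input RNA. Footprints were fewer and uneven, with 222855 and 715092 reads with sh-circMYBL2 (called a and b, because the deposited columns do not say which replicate each is) and 80160 and 300379 with sh-NC. Of these, 125761 and 584185 fell on protein-coding genes with sh-circMYBL2, against 33708 and 88701 with sh-NC. Markers fitted the labelled cell type: all 10 myeloid markers exceeded 1 FPKM of input RNA, with a median of 23.7 FPKM. FPKM are reads scaled by gene length and by a scaling total per library, which is not its number of reads on genes. For footprints these totals were 1113399 for sh-circMYBL2 library b and 185632 for sh-NC library 2. All 7 erythroid and megakaryocytic markers lay below 1 FPKM (median 0.00371). The same held for 7 of 8 lymphoid markers, all but CD4, which monocytic cells also express, and for 4 of 5 markers of plasmacytoid dendritic cells, the specialised interferon producers, all but IL3RA, and for 4 of 7 markers of adherent and stromal cells. In bulk samples, fewer cells that express a gene and less RNA of it per cell cannot be told apart.

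In input RNA the members were low with either hairpin, and none was called changed. Summed over the 9 genes, they held 136 and 171 reads with sh-circMYBL2 and 134 and 128 reads with sh-NC. In RPM, reads scaled by the library total alone, this was 9.80 and 11.8 with sh-circMYBL2 (95% Poisson intervals 8.22 to 11.6 and 10.1 to 13.7), against 10.1 and 8.89 with sh-NC (8.44 to 11.9 and 7.42 to 10.6). These intervals, like all read intervals here, cover counting error only. The members' mean levels ranged from 0.0283 FPKM (OAS2) to 2.20 FPKM (IFI6), which placed them between the 18.1st and the 51.3rd percentile of protein-coding genes above 0. Only ISG15 and IFI6 reached the mean of 1 FPKM required for the test across genes, and 7 of the 9 did not.

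ISG15 encodes a ubiquitin-like protein that is joined to other proteins during the antiviral response. It lies on chromosome 1 (1013497 to 1014540). Its RNA was 1.30 and 1.02 FPKM with sh-circMYBL2 (17 and 14 reads), against 1.28 and 1.18 FPKM with sh-NC (16 reads in each library). The groups overlapped. The change was -0.05 on the log2(FPKM + 1) scale (SE 0.12, 95% interval -0.38 to 0.29, limma adjusted p = 0.835), and in all that follows a change in input RNA is on this scale unless reads are named. IFI6 encodes a small membrane protein that restricts viral replication at the endoplasmic reticulum, and lies on chromosome 1 as well (27666064 to 27672192). It had 1.83 and 2.55 FPKM with sh-circMYBL2, against 2.17 and 2.25 FPKM with sh-NC. The sh-circMYBL2 libraries lay on both sides of the sh-NC ones, and the change was -0.02 (SE 0.14, 95% interval -0.39 to 0.36, limma adjusted p = 0.943). Across all 12489 genes tested, 8.88% were called in either direction, 29.2% had an unadjusted p under 0.05 and the median change was -0.00375. By limma voom on reads recovered from the values neither gene was called either (adjusted p = 0.905 for ISG15 and 0.962 for IFI6), against 26.2% of all genes, or 35.9% at an unadjusted p under 0.05.

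**Figure D1:**
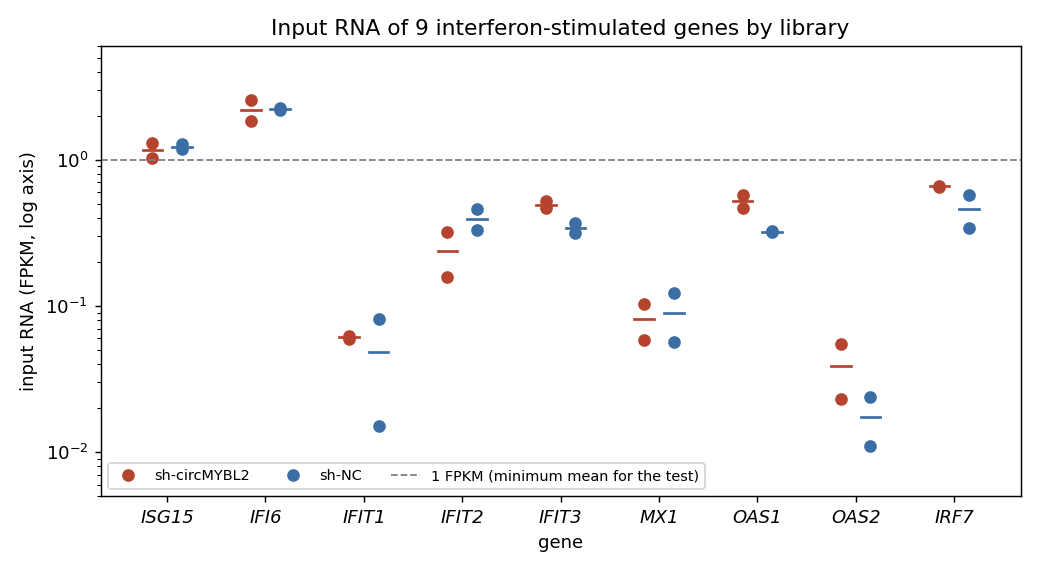
Input RNA of the 9 members on a log axis in FPKM. Each point is 1 library (sh-circMYBL2 left, sh-NC right), short lines are means of 2 libraries, and the dashed line marks the mean of 1 FPKM needed for the test. ISG15 and IFI6 lie above that line and the other 7 below it, with OAS2 and IFIT1 lowest.

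The 3 IFIT proteins act against viruses, and IFIT1 recognises viral RNA. Their genes neighbour each other on chromosome 10 (IFIT2 from 89302046 to 89309271, IFIT3 from 89327997 to 89340968, IFIT1 from 89392623 to 89406487). The annotated span of LIPA overlaps all 3, and whether counting used strand is not given in the sources used here, so reads of LIPA and of these genes are not separated with certainty. IFIT1 had 0.0625 and 0.0597 FPKM with sh-circMYBL2, against 0.0815 and 0.0151 FPKM with sh-NC, on no more than 5 reads in any library. IFIT2 had 0.158 and 0.319 FPKM with sh-circMYBL2, against 0.330 and 0.457 FPKM with sh-NC. IFIT3 had 0.518 and 0.470 FPKM with sh-circMYBL2, against 0.370 and 0.316 FPKM with sh-NC. IFIT1 overlapped between the groups, IFIT2 was lower in both sh-circMYBL2 libraries and IFIT3 was higher in both, so neighbours in one cluster lay on opposite sides.

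MX1, on chromosome 21 (41420558 to 41459214), encodes a dynamin-like GTPase that blocks influenza and other viruses. Its RNA was 0.0585 and 0.104 FPKM with sh-circMYBL2, against 0.122 and 0.0565 FPKM with sh-NC, and the groups overlapped. OAS1 and OAS2, on chromosome 12 (112906962 to 112933219 and 112978519 to 113011723), sense double-stranded RNA and make a short RNA messenger in response. OAS1 had 0.466 and 0.571 FPKM with sh-circMYBL2, against 0.319 and 0.323 FPKM with sh-NC, higher in both libraries. OAS2 had 0.0230 and 0.0550 FPKM with sh-circMYBL2, against 0.0240 and 0.0111 FPKM with sh-NC, which overlapped. IRF7, on chromosome 11 (612555 to 615950), encodes the factor that amplifies interferon transcription. It had 0.658 and 0.655 FPKM with sh-circMYBL2, against 0.572 and 0.344 FPKM with sh-NC, higher in both.

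Thus 3 of the 9 members were higher without overlap and 1 was lower, against 19.7% and 20.9% of the 29835 genes above 0 in an RNA library (40.6% in either direction), so non-overlap was about as frequent among the members as among all genes. Fitted without a filter on low values, the 7 members below it gave changes from -0.17 (IFIT2, SE 0.11, limma adjusted p = 0.607) to 0.20 (OAS1, SE 0.09, limma adjusted p = 0.428), and none was called, with 0.325% of all genes called in that fit (0.188% higher and 0.137% lower). Since these values are far below the pseudocount of 1, that scale compresses them. On reads instead, OAS1 had 73 with sh-circMYBL2 and 44 with sh-NC, a scaled ratio of 1.62 (95% counting interval 1.10 to 2.41), and IFIT2 had 28 with sh-circMYBL2 and 45 with sh-NC, a ratio of 0.607 (0.364 to 0.994). By limma voom on these reads without a filter, OAS1 changed by 0.67 (SE 0.30, adjusted p = 0.257) and IFIT2 by -0.76 (SE 0.42, adjusted p = 0.392), and no member was called, against 7.53% of all genes (4.06% higher and 3.48% lower). At an unadjusted p under 0.05 OAS1 was the only one of the 9 (0.0448), against 18.1% of all genes.

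Counting error sets how large a change could be missed. The upper ends of the 95% intervals of the read ratios were 1.60 for ISG15, 1.48 for IFI6 and 1.80 for MX1. They were 2.32 for IRF7 (49 against 33 reads), 2.50 for IFIT3 (37 against 25 reads) and 4.55 for IFIT1 (8 against 6 reads). For OAS2, with 7 against 3 reads, the interval ran from 0.519 to 13.6 and tells little. These bounds leave out the spread between libraries.

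**Figure D2:**
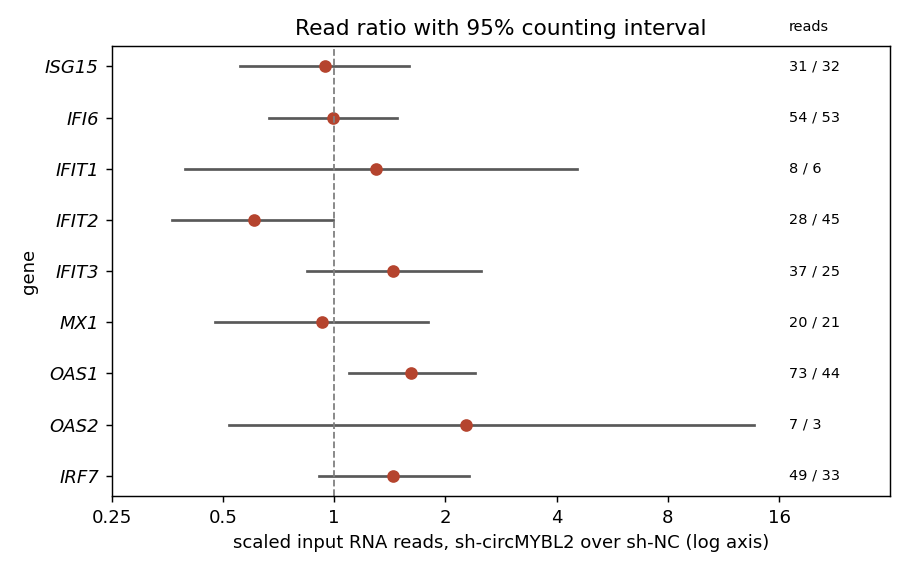
Scaled input RNA reads of each member, sh-circMYBL2 over sh-NC, on a log axis. Points are ratios of the reads summed over 2 libraries, bars are 95% counting intervals, and the numbers at the right are the reads (sh-circMYBL2 / sh-NC). The intervals of OAS1 (above 1) and IFIT2 (just below 1) leave out equality, and those of the other 7 include it.

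Footprints on the members were few. They numbered 3 and 15 reads with sh-circMYBL2 and 0 and 7 reads with sh-NC, over all 9 genes. IFI6, IFIT1 and MX1 had no footprint read in any library. A floor of 3 reads over a group corresponds to 2.53 RPKM (the same unit as FPKM, in the footprint table) for IFI6 with sh-circMYBL2 and to 12.9 RPKM with sh-NC, so low translation of these genes was not detectable at this depth. For MX1 that floor was 0.254 RPKM with sh-circMYBL2 and 1.30 RPKM with sh-NC.

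IRF7 had the most footprints, 2.94 and 3.42 RPKM with sh-circMYBL2 (2 and 10 reads), against 0 and 2.05 RPKM with sh-NC (0 and 1 reads). The change was 1.26 (SE 0.84, 95% interval -1.04 to 3.55, limma adjusted p = 0.627) on the log2(RPKM + 1) scale, where the median of all 9431 genes tested was 0.561. It was 0.45 without sh-NC library 1, 2.06 without sh-NC library 2 and 0.22 after quantile normalization, and was called in none of these. ISG15 had no footprint read with sh-circMYBL2, against 0 and 11.4 RPKM with sh-NC, on 2 reads in sh-NC library 2 (-1.82, SE 1.36, limma adjusted p = 0.627). OAS2 had 4 reads, all in sh-NC library 2, OAS1 had 3 and IFIT3 had 2, all in sh-circMYBL2 library b, and IFIT2 had 1. None of these 4 reached a mean of 1 RPKM. No member was called, and by limma 0 of 9431 genes were (0%), with 1212 genes (12.9%) at an unadjusted p under 0.05, which included neither ISG15 nor IRF7. By voom on recovered footprint reads 6 genes were higher and 50 lower, again without ISG15 or IRF7. The change in footprints beyond RNA, the translational efficiency, could be fitted for ISG15 only (-1.77, SE 1.56, limma adjusted p = 0.619). Of 8260 genes, 5.31% were called, 5.05% higher and 0.266% lower. The ISG15 change depended on 1 library. Without sh-NC footprint library 1 it was -3.59, in a fit where the ISG15 footprints had no spread within a group. Without sh-NC library 2, which holds both ISG15 footprint reads, it was 0.0466.

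The steps before the members were read from lists of pathway genes. The lists sort genes by role, and a place in one does not mean that a gene is not itself interferon-stimulated. At the start of the pathway, 19 of 21 genes of type I and type III interferons were listed at 0 in all 4 RNA libraries. The 2 exceptions, named after their values were seen, were IFNB1 (0.0809 FPKM in sh-NC library 2, 0 in the other 3) and IFNA8 (0.0693 FPKM in sh-circMYBL2 library 1, 0 in the other 3). No interferon gene had a footprint read.

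Among 13 sensors and effectors of double-stranded RNA and DNA, 6 could be tested in input RNA, and 3 rose and none fell with sh-circMYBL2 (median change 0.32), against 4.92% higher and 3.96% lower among all genes. CGAS, which senses cytosolic DNA, had 13.8 and 13.2 FPKM with sh-circMYBL2, against 9.77 and 9.70 FPKM with sh-NC (0.43, SE 0.04, limma adjusted p = 0.0201). DDX58, which encodes RIG-I, averaged 3.96 ± 0.0687 FPKM with sh-circMYBL2 and 2.68 ± 0.172 FPKM with sh-NC (SD, n = 2 each; 0.43, SE 0.07, limma adjusted p = 0.0457). IFIH1, which encodes MDA5, had 5.57 and 6.10 FPKM with sh-circMYBL2, against 4.12 and 4.13 FPKM with sh-NC (0.41, SE 0.07, limma adjusted p = 0.0417). For each of the 3 the lowest sh-circMYBL2 library exceeded the highest sh-NC library. By voom on recovered reads 4 of the 6 were higher and none lower, against 13.7% higher and 12.5% lower among all genes. The fourth was EIF2AK2, which limma did not call. EIF2AK2, which encodes the kinase PKR, averaged 10.1 ± 0.180 FPKM with sh-circMYBL2 and 8.48 ± 0.372 FPKM with sh-NC (SD, n = 2 each; limma adjusted p = 0.0785, and 0.000473 by limma voom). ADAR, the enzyme that edits double-stranded RNA, averaged 12.7 ± 0.559 FPKM with sh-circMYBL2 and 13.0 ± 0.367 FPKM with sh-NC (limma adjusted p = 0.756). DHX58, which encodes the third RIG-I-like protein LGP2, lay below the filter and ran the other way, with 0.169 and 0.215 FPKM with sh-circMYBL2 and 0.430 and 0.452 FPKM with sh-NC (without a filter, limma adjusted p = 0.208). It was named after its values were seen.

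The signalling steps were expressed and were not called by limma. Of 14 adaptors, kinases and factors downstream of the sensors, all were tested and 0 passed by limma (median 0.04), with 3 at an unadjusted p under 0.05. Among all genes limma called 8.88%, and 29.2% had an unadjusted p under 0.05. By voom on recovered reads 1 of the 14 was higher and 1 lower, against 13.7% and 12.5% of all genes. The factor IRF3 averaged 20.4 ± 0.399 FPKM with sh-circMYBL2 and 19.5 ± 1.67 FPKM with sh-NC. The kinase TBK1 averaged 16.3 ± 0.226 FPKM with sh-circMYBL2 and 17.1 ± 0.475 FPKM with sh-NC. The adaptor MAVS averaged 16.3 ± 0.348 FPKM with sh-circMYBL2 and 15.2 ± 0.124 FPKM with sh-NC (SD, n = 2 each). Of 12 receptor and JAK-STAT genes, 10 were tested and 0 passed by limma (median 0.04), with 3 at an unadjusted p under 0.05 and, by voom, 2 higher and 1 lower. The same shares of all genes apply, so 0 limma calls in lists of 14 and 10 genes say little about these steps. IFNGR1, a chain of the interferon-gamma receptor, averaged 40.2 ± 0.0941 FPKM with sh-circMYBL2 and 38.6 ± 1.73 FPKM with sh-NC. IFNAR2, a chain of the type I receptor, averaged 29.9 ± 0.128 FPKM with sh-circMYBL2 and 26.5 ± 0.0522 FPKM with sh-NC (0.17, limma adjusted p = 0.0551). JAK2, a kinase of the interferon-gamma receptor, averaged 22.6 ± 0.0159 FPKM with sh-circMYBL2 and 19.2 ± 0.786 FPKM with sh-NC (0.22, limma adjusted p = 0.0588). By limma voom IFNAR2 and JAK2 were called higher (adjusted p = 0.00546 and 0.000374).

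STAT2 and IRF9, which act together on the ISRE, stood at very different levels, and were singled out after their values were seen. STAT2 averaged 5.13 ± 0.399 FPKM with sh-circMYBL2 and 6.78 ± 0.266 FPKM with sh-NC (-0.35, limma adjusted p = 0.0645). By limma voom STAT2 was called lower (-0.40, adjusted p = 0.000213). IRF9 had 0.133 and 0.0545 FPKM with sh-circMYBL2, against 0.0991 and 0.348 FPKM with sh-NC, and no footprint read in any library. It thus lay in the range of the low members, and below STAT2, with either hairpin.

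**Figure D3:**
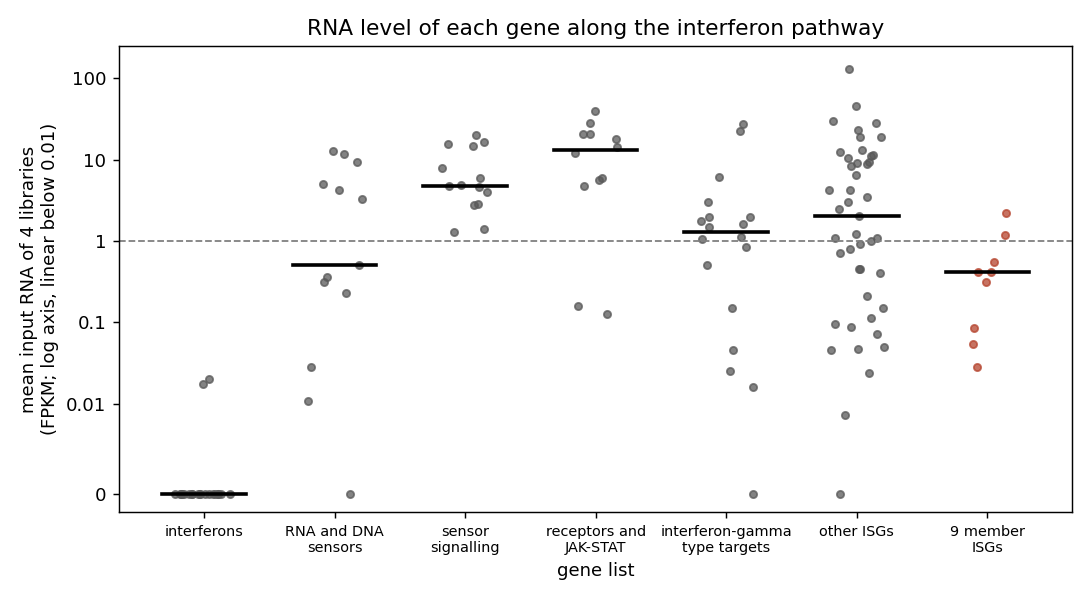
Mean input RNA of the 4 libraries for every gene of 6 pathway lists and for the 9 members, in FPKM on a log axis that is linear below 0.01. Black lines are medians and the dashed line is 1 FPKM. Interferon genes lie at or near 0, signalling and receptor genes mostly above 1, and the members have a median of 0.418 FPKM.

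A wider list of 45 interferon-stimulated genes was not uniformly silent, though 18 of the 45 averaged below 1 FPKM (list median 2.04 FPKM). IFI27, IFI44L and OAS3 (means of 0, 0.00879 and 0.0240 FPKM) lay below all 9 members. Of the 45 genes, 27 were tested in input RNA. By limma 4 rose and 2 fell with sh-circMYBL2 (median 0.09), against 4.92% higher and 3.96% lower among all genes. By voom 7 were higher and 5 lower, against 13.7% and 12.5% of all genes. SAMHD1, a dNTP hydrolase that restricts retroviruses, averaged 50.8 ± 0.423 FPKM with sh-circMYBL2 and 41.0 ± 1.12 FPKM with sh-NC (0.30, SE 0.04, limma adjusted p = 0.0244). TDRD7 (0.35), PARP14 (0.33) and TRIM22 (0.26), an antiviral TRIM protein, also rose (limma adjusted p = 0.0357, 0.0286 and 0.0377). XAF1, a pro-apoptotic gene, fell to 10.5 ± 0.154 FPKM with sh-circMYBL2, against 16.2 ± 0.0808 FPKM with sh-NC (-0.58, SE 0.04, limma adjusted p = 0.0117). PNPT1, a mitochondrial RNA-degrading enzyme, fell as well (-0.25, limma adjusted p = 0.0344). BST2, which encodes tetherin and was the most abundant of the list, had 132 and 140 FPKM with sh-circMYBL2, against 125 and 122 FPKM with sh-NC (0.14, limma adjusted p = 0.134). The level of this list summed to 436 and 446 FPKM with sh-circMYBL2 and 406 and 409 FPKM with sh-NC. The 9 members summed to 5.08 and 5.80 FPKM with sh-circMYBL2 and 5.27 and 4.95 FPKM with sh-NC. These sums cover 45 and 9 genes, and BST2 alone makes up a large part of the first, so they are not compared. Of the 5 genes that attach or remove ISG15, UBE2L6 (4.70 ± 0.127 FPKM with sh-circMYBL2, 4.81 ± 0.127 FPKM with sh-NC) and UBA7 were tested and neither passed, also by voom (limma adjusted p = 0.782 and 0.487).

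Of 18 genes typical of interferon-gamma, 11 were tested, and by limma 4 rose and 1 fell (median 0.37), against 4.92% higher and 3.96% lower among all genes. By voom 7 were higher and 1 lower, against 13.7% and 12.5% of all genes. CIITA, the master regulator of MHC class II genes, had 1.68 and 1.73 FPKM with sh-circMYBL2, against 0.581 and 0.470 FPKM with sh-NC, on 703 and 210 reads (0.83, SE 0.12, limma adjusted p = 0.0342). IRF1, a transcription factor, averaged 3.63 ± 0.141 FPKM with sh-circMYBL2 and 2.44 ± 0.155 FPKM with sh-NC (0.43, limma adjusted p = 0.0497). IRF8, which directs monocyte and dendritic cell development and is not only an interferon target, averaged 25.6 ± 1.43 FPKM with sh-circMYBL2 and 19.6 ± 0.0865 FPKM with sh-NC (0.37, limma adjusted p = 0.0324). PSMB8, an immunoproteasome subunit, rose too (0.39, limma adjusted p = 0.0381). WARS, which is both an interferon-gamma target and the tryptophanyl-tRNA synthetase, fell to 19.2 ± 0.0328 FPKM with sh-circMYBL2, against 36.2 ± 1.74 FPKM with sh-NC (-0.88, limma adjusted p = 0.00972). Other markers of the same list were near 0 with either hairpin: CXCL9 was listed at 0 in all 4 libraries, and GBP1 and CXCL10 had no more than 0.0639 FPKM in any. Cell type markers moved between the hairpins as well. Of the 10 myeloid markers, CEBPA and FLT3 rose and none fell by limma, while by voom 5 were higher and 2 lower (CD33 and MPO), and their summed level was 1047 and 1003 FPKM with sh-circMYBL2, against 857 and 816 FPKM with sh-NC. Of the markers of other cell types, CD4 rose (16.6 and 17.4 FPKM with sh-circMYBL2, against an average of 12.4 FPKM with sh-NC; 0.43, limma adjusted p = 0.0244), the only tested lymphoid one. IL3RA, the only tested plasmacytoid one, fell (9.18 and 8.82 FPKM with sh-circMYBL2, against 11.9 and 11.8 FPKM with sh-NC; -0.36, limma adjusted p = 0.0270). ACTA2, 1 of 3 tested adherent and stromal ones, fell as well (-0.36, limma adjusted p = 0.0463). The part of such markers in the changes of the gene lists was not tested.

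**Figure D4:**
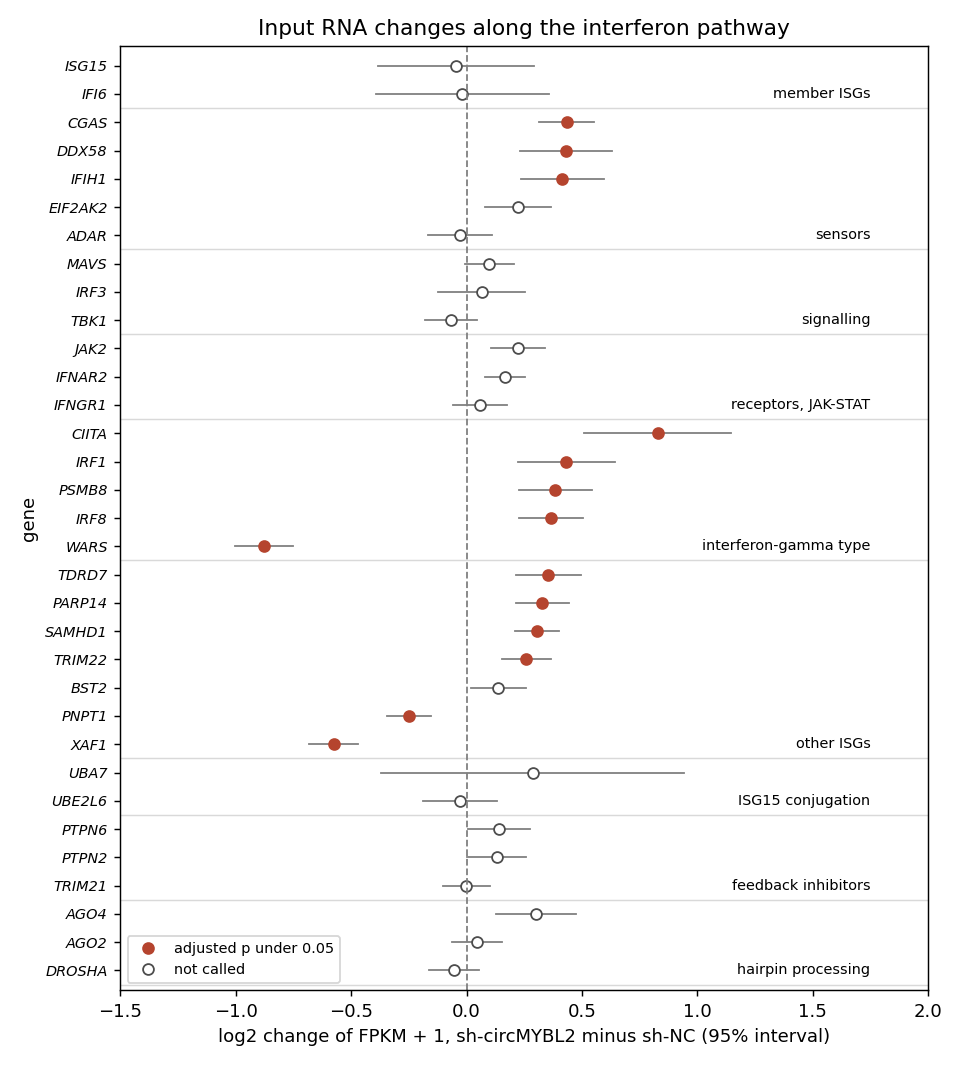
Change of input RNA on the log2(FPKM + 1) scale, sh-circMYBL2 minus sh-NC, with 95% intervals from limma for the 2 testable members and the named genes of 8 lists. Filled points had an adjusted p under 0.05. ISG15 and IFI6 lie at -0.05 and -0.02, the 3 called sensors between 0.41 and 0.43, and WARS and XAF1 at -0.88 and -0.58.

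Feedback inhibitors and the enzymes that process short hairpins were also read. Of all genes, limma called 8.88% and 29.2% had an unadjusted p under 0.05, while by voom 13.7% were higher and 12.5% lower. Of 8 inhibitors 6 were tested and 0 passed by limma (3 at an unadjusted p under 0.05, and 2 higher by voom). The 3 with the highest level, PTPN2, PTPN6 and TRIM21, had limma adjusted p of 0.165, 0.159 and 0.987. By limma voom these were 0.0277, 0.04998 and 0.995. Of 10 processing genes all were tested and 0 passed by limma (3 at an unadjusted p under 0.05, and 3 higher and 1 lower by voom). AGO2, the slicing Argonaute, averaged 14.4 ± 0.165 FPKM with sh-circMYBL2 and 13.9 ± 0.280 FPKM with sh-NC (limma adjusted p = 0.510). DROSHA, the nuclear hairpin nuclease of the microRNA pathway, averaged 15.3 ± 0.0784 FPKM with sh-circMYBL2 and 15.9 ± 0.419 FPKM with sh-NC (limma adjusted p = 0.440). AGO4, another Argonaute, averaged 17.4 ± 1.11 FPKM with sh-circMYBL2 and 13.9 ± 0.624 FPKM with sh-NC (limma adjusted p = 0.0660). By limma voom AGO4 was called higher (adjusted p = 1.7e-05). Across the whole table, the 5 genes whose centred log2 values over the 4 RNA libraries lay nearest to the mean of ISG15 and IFI6, out of 5227 compared, were RPL6, ASH1L, COA5, DLG1 and POLK, at Euclidean distances of 0.00762 to 0.0134. They are genes with flat values in all 4 libraries, such as RPL6 with 96.2 and 100.9 FPKM with sh-circMYBL2 and 100.7 and 100.4 FPKM with sh-NC. ISG15 and IFI6 differed in opposite directions between the sh-circMYBL2 libraries, which partly cancels in their mean. Nearness to that mean therefore says little about either gene.

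Every limma call in input RNA named above was lost when any 1 of the 4 RNA libraries was left out. Over the 14 called pathway genes the limma adjusted p then ran from 0.0800 to 0.193, and 0 genes of the whole table were called (2608 to 2827 at an unadjusted p below 0.05; with every library 3653). By voom on recovered reads of all 4 libraries all 14 were called, in the same direction. Voom was not refitted with a library left out.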

How the data were processed

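Input RNA and ribosome footprints of MOLM-13 cells were measured, with 2 libraries per hairpin and assay, grouped by sample title. No label states that a group's libraries are separate cultures, so p-values reflect the spread between these libraries alone, possibly a technical one. The authors deposited FPKM values for input RNA and RPKM values for footprints. Per the submitters' processing notes cutadapt, Bowtie, HISAT2, featureCounts and DESeq2 were used with hg38, with no versions or roles stated there. The tables were scaled apart, so each was tested apart.

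Values times gene length were whole multiples of a step per library, fixed from microRNA genes (98.6% to 99.4% whole within 0.02 reads), which gave back the reads behind each value. The totals used for scaling equalled median-ratio size factors (file over computed value 1.00065 to 1.00068).

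Each table was fitted with limma 3.58.1 in R 4.3.3 on log2(value + 1) with a mean-variance trend, two-sided, keeping mean values of 1 or more, Benjamini-Hochberg adjusted over all genes, threshold 0.05. Translational efficiency was the interaction of hairpin and assay over 8 libraries. It gives each gene 1 variance over both assays. Exact permutation of 2 against 2 libraries cannot go below p = 0.333. Read ratios carry exact conditional intervals. The fits were also run on counts simulated with a fixed spread, which does not show how they behave on these libraries. Alternatives were pseudocounts of 0.1 and 5, no filter, quantile normalization, voom on recovered reads, the replicate number as a block, and each library left out.

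Members and lists were chosen with earlier results of these data known. Named genes are all members and, per list, up to 6 called in input RNA by size of change and the 3 with the highest level, and the 5 genes of at least 5 FPKM with the pattern nearest to the tested members. Genes named outside this rule are IFNB1, IFNA8, DHX58, STAT2, IRF9, CMPK2, RSAD2, LGALS3BP, OASL, EPSTI1, IFI27, IFI44L, OAS3, CXCL9, CXCL10, GBP1, AZI2, IL10RB, TAP2 and the cell type markers. Results of some listed genes are not reported here. Gene coordinates and promoters are from RefSeq (GRCh38.p14).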

Additional observations from a re-analysis of the deposited data

Results flagged for a closer look

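Of the 9 members only ISG15, with 2 footprint reads, could be tested for a response to the hairpin that differs between assays, and ISG15 did not pass. Among the pathway genes that passed this test, by the interaction of hairpin and assay in limma, 4 are described here, only as values. JAK2 had a translational efficiency change of 2.91 (limma adjusted p = 0.0237), with 71 footprint reads with sh-circMYBL2 and 0 with sh-NC. That was 4.62-fold over a floor of 3 reads set for the sh-NC group. Such folds leave out counting error. AZI2, an adaptor of TBK1, had a change of 2.59 on 27 against 0 reads, 1.76-fold over that floor. IL10RB, a receptor chain shared by type III interferons, had a change of 2.42 on 29 against 0 reads, 1.89-fold over that floor. TAP2, the peptide transporter subunit, ran the other way, with a change of -2.55 on 11 against 17 reads. In the 3 of these genes with no sh-NC read the fitted change depends on the pseudocount (for JAK2 6.06 with 0.1 and 1.17 with 5). Neither that change nor the fold over the floor is a bound. The part that the lower depth of the sh-NC footprint libraries plays was not tested. For comparison, the median change of all 8260 genes was 0.572, and 417 were called higher and 22 lower. These 4 calls were lost with any 1 RNA library left out, under quantile normalization and with a pseudocount of 5.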

How the results depend on the processing

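In input RNA 0 of the members were called under every alternative run, planned or added after seeing the data (no filter combined with each other choice). In footprints 0 were called except with 1 library left out without a filter, where the count ran from 0 to 2. Without sh-circMYBL2 library a these were IFIT3 (0.75) and OAS1 (0.63), each on a single library with both sh-NC libraries at 0, which leaves no spread, and without library b IFIT2 (0.96). Of all 12892 genes in these fits, 3869 were higher and 19 lower without library a, and 2234 and 3 without library b. For translational efficiency the count with a library left out ran from 0 to 1 (ISG15, -3.59 to 0.0466). With a library left out, input RNA changes turned sign for ISG15 (-0.14 to 0.046), IFI6 (-0.18 to 0.14), IFIT1 (-0.027 to 0.064), MX1 (-0.054 to 0.033, and 0.020 without sh-circMYBL2 library 1), ADAR (-0.070 to 0.013), IRF3 (-0.018 to 0.15), TRIM21 (-0.022 to 0.019) and UBA7 (-0.022 to 0.59). Without a sign change, IFIT2 ran from -0.27 to -0.078, IFIT3 from 0.12 to 0.18 and OAS1 from 0.15 to 0.25. IRF7 ran from 0.075 to 0.30 and OAS2 from 0.0077 to 0.052. Footprint changes ran from 0.45 to 2.06 for IRF7 (2.82 with a pseudocount of 0.1, 0.46 with one of 5, 0.40 by voom), -3.64 to 0 for ISG15, 0 to 0.96 for IFIT2, 0 to 0.75 for IFIT3, 0 to 0.63 for OAS1 and -2.15 to 0 for OAS2. Without a filter, footprint changes of IFIT2, IFIT3 and OAS1 turned to -0.10, -0.23 and -0.25 under quantile normalization, and to -1.21, -0.98 and -0.76 by voom; the cause was not tested. The median footprint change of all genes was 0.561, and 0.0701 after quantile normalization. Of the 14 called pathway genes, 12 were not called without a filter (29835 genes tested in place of 12489), and IRF1 not with a pseudocount of 5 (adjusted p = 0.0503). With the replicate block no gene was called (0 of 12489, 3373 at an unadjusted p under 0.05). The deviations of the RNA libraries numbered 1 correlated with r = 0.0265, so the numbers are not shown to pair the samples, and footprint columns of sh-circMYBL2 carry none. Over all genes in input RNA, 615 were higher and 494 lower by limma, against 1705 and 1561 by voom and 56 and 41 without a filter. For translational efficiency 417 were higher and 22 lower, against 812 and 41 with a pseudocount of 0.1, 2 and 0 with one of 5, 0 after quantile normalization or without any 1 RNA library, and 2123 and 918, 3673 and 1222, 952 and 124, and 891 and 115 without sh-NC footprint library 1, sh-NC library 2, sh-circMYBL2 library a and library b. Footprint depth limits every statement on translation of the members.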
